A study of Mus musculus with 6 samples.

Results

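The genes described here carry antigen presentation on MHC molecules, read in bone marrow of mice that lack nuclear myosin 1 (NM1 KO) and of wild-type mice (NM1 WT). They are 35 of the 46603 genes counted, taken by symbol from a list that was drawn up with earlier results of these mice known: 22 serve MHC class I and 13 serve MHC class II. All 35 were found among the counted genes, and all 35 passed the filter on low counts, with at least 104 counts in every library. Each group held 3 C57/Bl6 mice aged 8 months, and each library came from the femurs and tibiae of a single mouse. The marrow was spun out of the bones, the labels mention no sorting and name no cell type, and fewer cells of a type and less RNA per cell cannot be told apart. Nuclear myosin 1 is an isoform of Myo1c, a single-headed motor protein. The labels give no other allele and no treatment in either group.

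MHC class I molecules stand on nearly all nucleated cells and show peptides made inside the cell to CD8 T cells. The peptides are cut by proteasomes, pumped into the endoplasmic reticulum by the TAP transporter, trimmed there, and loaded onto a heavy chain paired with beta-2-microglobulin. MHC class II molecules stand mainly on B cells, dendritic cells and macrophages and show peptides from engulfed material to CD4 T cells. The invariant chain guards the class II groove until lysosomal proteases remove it, and H2-DM then exchanges the remaining stub for peptide. Interferon-gamma raises both pathways, through the transactivators NLRC5 for class I and CIITA for class II. Of the 35 genes, 21 lie in the H2 complex on chromosome 17, between 33915899 and 37274484 on GRCm38.

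Library totals lay between 21101616 and 22618802 counts in NM1 KO and between 15145052 and 17580660 in NM1 WT. Levels are given as CPM, counts scaled to library size with TMM factors, and 1 CPM stands for 14.7 to 23 counts. Myo1c, whose count adds up all of its isoforms and so does not check the deletion itself, had 73.8, 59.1 and 59.7 CPM in the NM1 KO mice, and 89.8, 115 and 102 CPM in the NM1 WT mice. The genotypes did not overlap in Myo1c (log2 fold change -0.67, SE 0.14, adjusted p = 0.0516 in edgeR's quasi-likelihood test). NM1 WT 2 stood apart from the other libraries, at -61.8 on the second principal component against 4.45 to 20.6 for the rest. The Y-linked genes Ddx3y, Uty, Kdm5d and Eif2s3y were detected in NM1 KO 1, NM1 KO 2 and NM1 WT 2 (158 to 199 CPM in sum) and had 0 CPM in NM1 KO 3, NM1 WT 1 and NM1 WT 3. Xist went the other way, at 0.276 to 1.16 CPM in the libraries with Y-linked expression and at 269 to 300 CPM in those without. The labels do not give the sex of the mice. By these genes NM1 KO held 2 male mice and 1 female, and NM1 WT held 1 male mouse and 2 females, so sex was not balanced between genotypes. NM1 WT 2 is the single NM1 WT library with Y-linked expression. Over all genes, 117 of 15069 tested reached an adjusted p below 0.05 (edgeR, quasi-likelihood test), which is 0.776%. Leaving out a library gave 40 (NM1 KO 2), 177 (NM1 KO 3), 26 (NM1 WT 1), 344 (NM1 WT 2) or 30 (NM1 WT 3) such genes.

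None of the 35 antigen presentation genes passed the threshold in NM1 KO against NM1 WT. In the class I group 0 of 22 genes passed in edgeR's quasi-likelihood test, with adjusted p between 0.113 for Psmb8 and 0.984 for H2-Q6, and in the class II group 0 of 13 passed, with adjusted p between 0.189 for Lgmn and 0.981 for H2-Eb1. Among all tested genes 0.591% passed as higher and 0.186% as lower. At an unadjusted p under 0.05, 7 class I genes were lower and 0 higher, and 1 class II gene was lower and 1 higher, where 8.32% of all tested genes were lower and 8.44% higher. DESeq2 called 4 class I genes and 0 class II genes where it called 5.27% of all tested genes, limma-voom called 0 in both classes (0.246% of all), and the edgeR likelihood ratio test called 0 in both classes (3.59% of all).

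Both classes had more negative than positive log2 fold changes (NM1 KO over NM1 WT). In the class I group 18 of 22 were negative, with a median of -0.24, and in the class II group 12 of 13, with a median of -0.13. Over all tested genes 49.8% were negative and the median was 0.00185. Because of how the list was drawn up, these counts describe it and carry no test. Without TMM factors 15 class I and 11 class II genes were negative, since H2-Q6, H2-Q7, B2m and H2-Eb1 lay close to 0. With Y-linked state in the model, 12 class I and 12 class II genes were negative, and without NM1 WT 3 the counts were 12 and 8. Leaving out a library moved the class II median to -0.0083 (NM1 KO 3), -0.03 (NM1 WT 3), -0.29 (NM1 KO 1) or -0.23 (NM1 WT 1). For 7 class I and 2 class II genes all 3 NM1 KO mice were below all 3 NM1 WT mice, and for Lgmn alone all 3 were above. Of all tested genes, 9.75% did not overlap as lower and 10.8% as higher.

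**Figure D1:**
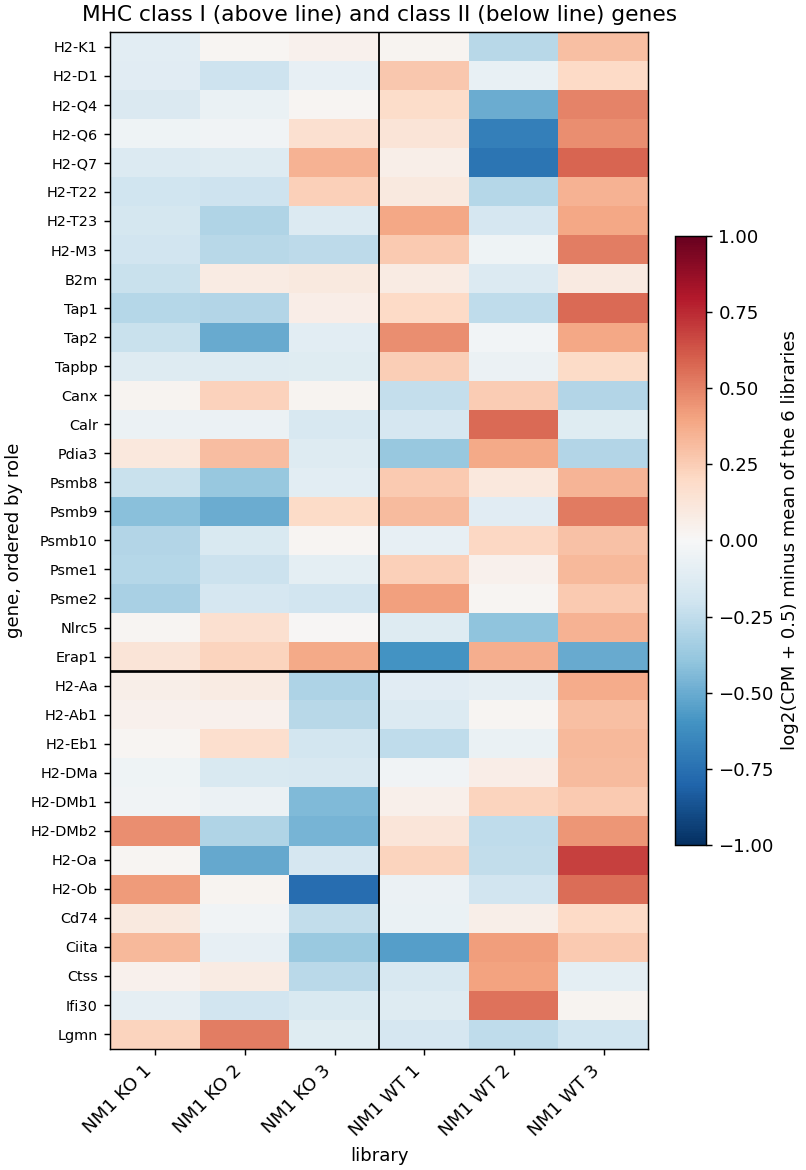
Level of each gene in each library as log2(CPM + 0.5) minus the gene's mean over the 6 libraries (colour), with NM1 KO mice left of the vertical line, NM1 WT mice right of it, and class I genes above the horizontal line. The proteasome genes Psmb8, Psme1 and Psme2 are blue in all 3 NM1 KO columns, while NM1 WT 2 is blue for H2-Q4, H2-Q6 and H2-Q7 and red for Calr.

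The classical class I chains were among the most abundant members, and neither passed the test. H2-K1, which encodes the H2-K heavy chain (chromosome 17, 33996017 to 34000347), had 967, 1058 and 1073 CPM in the NM1 KO mice, and 1061, 858 and 1284 CPM in the NM1 WT mice. The NM1 KO values lay inside the NM1 WT range, and the log2 fold change was -0.05 with a 95% interval of -0.38 to 0.28. H2-D1, which encodes the H2-D heavy chain (chromosome 17, 35262730 to 35267499), had 1685, 1578 and 1719 CPM in the NM1 KO mice, and 2192, 1731 and 2088 CPM in the NM1 WT mice. The groups did not overlap, but NM1 WT 2 lay next to NM1 KO 3, and the log2 fold change of -0.27 (SE 0.13) had an adjusted p of 0.329 in edgeR's quasi-likelihood test.

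B2m encodes beta-2-microglobulin, the light chain that every class I heavy chain needs (chromosome 2, 122147686 to 122153083). It had 836, 1030 and 1043 CPM in the NM1 KO mice, and 1033, 887 and 1036 CPM in the NM1 WT mice. The groups overlapped fully, and the interval of its log2 fold change, -0.32 to 0.27 around -0.02, leaves room for a difference of that size in either direction. The log2 ratio of H2-K1 to B2m within a library averaged 0.096 ± 0.098 in NM1 KO mice and 0.10 ± 0.19 in NM1 WT (SD, n = 3 each).

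Among the 6 non-classical heavy chains, all log2 fold changes were negative and ranged from -0.52 to -0.01, with H2-Q6 and H2-Q7 positive without TMM factors. H2-T23 encodes Qa-1, which shows leader peptides of other class I chains to NKG2A receptors of NK cells, and had 205, 188 and 211 CPM in the NM1 KO mice, and 302, 206 and 303 CPM in the NM1 WT mice. NM1 WT 2 fell inside the NM1 KO range, and the adjusted p was 0.199 for a log2 fold change of -0.43 (SE 0.16). H2-M3 presents N-formylated bacterial peptides and had 16.4, 15.5 and 15.7 CPM in the NM1 KO mice, and 22.7, 18.3 and 27.0 CPM in the NM1 WT mice. Its groups did not overlap, and the log2 fold change was -0.52 (SE 0.18, adjusted p = 0.192 in edgeR's quasi-likelihood test). The Qa-2 genes H2-Q6 and H2-Q7 had log2 fold changes of -0.01 and -0.02, H2-Q4 of -0.18 and H2-T22 of -0.12. For H2-Q4, H2-Q6 and H2-Q7 the lowest library was NM1 WT 2 and the highest NM1 WT 3, so the NM1 WT range enclosed all NM1 KO values. H2-Q6 stood at 120 to 139 CPM in NM1 KO and at 76.9 to 171 CPM in NM1 WT.

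Counts of these heavy chains are less certain than those of single-copy genes. Of all stretches of 50 bases in the annotated transcripts, 53.5% of those of H2-T22 also occur in another gene, 31.2% in H2-T10 alone. The shares were 36.4% for H2-Q4, 35.0% for H2-Q6 and 26.5% for H2-Q7, against 12.8% for H2-D1, 9.63% for H2-K1 and 0% for B2m. With the handling of multiply aligned reads not given in the sources used here, how such reads were assigned is unknown.

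The proteasome genes had the lowest median of the roles with more than 1 class I gene, -0.47, with 5 of 5 negative. Psmb8 (LMP7), Psmb9 (LMP2) and Psmb10 (MECL-1) are the catalytic subunits that replace the constitutive ones in the immunoproteasome, and Psme1 and Psme2 are the PA28 activator subunits that cap it. Psmb8 (chromosome 17, 34197721 to 34201454) had 110, 98.4 and 120 CPM in the NM1 KO mice, and 154, 138 and 163 CPM in the NM1 WT mice. The NM1 KO mice were all below the NM1 WT mice, and the log2 fold change was -0.47 (SE 0.13, adjusted p = 0.113 in edgeR's quasi-likelihood test). Psme2 had 73.2, 81.8 and 80.3 CPM in the NM1 KO mice, and 122, 93.1 and 110 CPM in the NM1 WT mice, and Psme1 had 160, 168 and 183 CPM against 231, 201 and 245 CPM in the same order. Neither gene overlapped between genotypes, with log2 fold changes of -0.47 (adjusted p = 0.122) and -0.40 (adjusted p = 0.147) in edgeR's quasi-likelihood test. Of the 50-base stretches of Psme2, 28.3% also occur in Psme2b.

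Psmb9 and Psmb10 overlapped between genotypes. Psmb9 had 72.1, 68.3 and 110 CPM in the NM1 KO mice, and 120, 89.4 and 138 CPM in the NM1 WT mice, and NM1 KO 3 stood above NM1 WT 2. Psmb10 ranged from 75.4 to 93.5 CPM in NM1 KO and from 87.1 to 113 CPM in NM1 WT, with a log2 fold change of -0.29. The constitutive counterparts Psmb5, Psmb6 and Psmb7 had log2 fold changes of -0.09, -0.26 and -0.02, and 0 of 3 passed the threshold, though Psmb6 did not overlap between genotypes. The log2 ratio of Psmb8 to Psmb5 within a library was 0.489, 0.332 and 0.630 in the NM1 KO mice, and 1.00, 0.567 and 1.06 in the NM1 WT mice, with NM1 WT 2 inside the NM1 KO range. In an exact two-sided permutation test this ratio gave p = 0.2 where 0.1 is the smallest that 3 mice against 3 allow, and adjusted p = 1 over the 10 subunit ratios computed. The ratios of Psmb9 to Psmb6 and of Psmb10 to Psmb7 differed by -0.22 and -0.26 (exact permutation p = 0.5 and 0.3).

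The same 6 libraries were also read apart by Y-linked state, as differences in log2(CPM + 0.5) between NM1 KO and NM1 WT. With Y-linked expression (NM1 KO 1 and 2 against NM1 WT 2) 15 of 22 class I genes were negative, with a median of -0.10, and without it (NM1 KO 3 against NM1 WT 1 and 3) 16 of 22 were, with a median of -0.18. Of the class II genes 6 of 13 were negative with Y-linked expression (median 0.0020) and 12 of 13 without it (median -0.31). The medians of the 5 proteasome genes were -0.35 with and -0.38 without Y-linked expression, and those of the 6 non-classical heavy chains 0.24 and -0.23. In each state 1 genotype has a single library, and the split reuses the values already given, so it has no test and adds no independent evidence of a direction. The genotype effect with Y-linked expression minus that without it, from a fit over all genes, ran from -1.14 log2 units for Erap1 to 1.50 for H2-Ob. With a single library of 1 genotype in each state, that fit cannot decide whether the members depend on Y-linked state.

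**Figure D2:**
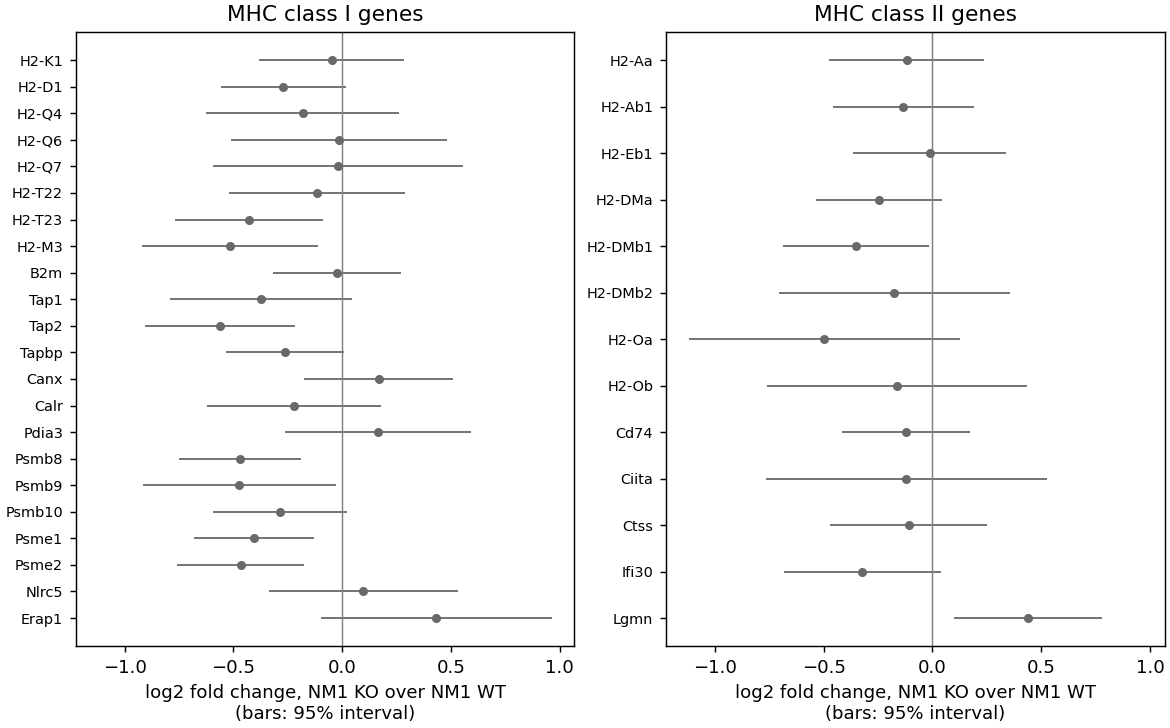
Log2 fold change of each gene, NM1 KO over NM1 WT, with its 95% interval (bars), for 22 class I genes (left) and 13 class II genes (right). Before adjustment for the number of genes, the intervals of 7 class I genes (H2-T23, H2-M3, Tap2, Psmb8, Psmb9, Psme1 and Psme2) and of H2-DMb1 in class II lie below 0, that of Lgmn lies above 0, and the interval of B2m spans -0.32 to 0.27. Of all tested genes, 8.32% were lower and 8.44% higher at the matching unadjusted p under 0.05.

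Tap1 and Tap2 encode both chains of the peptide transporter, and Tapbp encodes tapasin, which bridges it to the class I molecule. Tap2 (chromosome 17, 34203527 to 34216321) had 88.2, 72.7 and 95.7 CPM in the NM1 KO mice, and 143, 101 and 135 CPM in the NM1 WT mice. The groups did not overlap, and the log2 fold change of -0.56 was the most negative among the 35 genes (SE 0.16, adjusted p = 0.12 in edgeR's quasi-likelihood test). Tap1 overlapped, at 108 to 139 CPM in NM1 KO and 112 to 197 CPM in NM1 WT, with a log2 fold change of -0.37. Tapbp had 199, 198 and 200 CPM in the NM1 KO mice, and 258, 209 and 248 CPM in the NM1 WT mice, a log2 fold change of -0.26, and its groups did not overlap. Without NM1 WT 2, 4 class I genes passed where 2.18% of all genes did: Tap2 (adjusted p = 0.0421), Psme2 (0.0496) and H2-T23 (0.0421) as lower and Erap1 (0.0474) as higher in edgeR's quasi-likelihood test.

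Overlapping transcripts touch several of these genes. The shared exon bases of Tap1 and Psmb9, which lie head to head on opposite strands, make up 3.87% of Tap1 and 5.79% of Psmb9. Antisense transcripts cover 24.9% of the exon bases of Tapbp, 14.7% of Psmb8, 29.4% of H2-T22, 19.1% of H2-Q4 and 22.8% of H2-Oa. On the opposite strand, Gm15821 shares 14.1% of the exon bases of Tap2, and Brd2 shares 10.4% of those of H2-DMa. With the strand setting not given in the sources used here, reads of such partners cannot be told apart.

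The general chaperones of the endoplasmic reticulum that also serve class I loading followed another order of libraries. Calr (calreticulin) stood at 629 to 677 CPM in NM1 KO and at 625, 1041 and 646 CPM in NM1 WT, with NM1 WT 2 highest. Canx (calnexin) and Pdia3 (ERp57) had log2 fold changes of 0.17 and 0.16, and in both the 3 NM1 KO libraries lay between NM1 WT 2 and the other NM1 WT libraries. Erap1, the aminopeptidase that trims peptides for class I, had 24.2, 25.8 and 28.8 CPM in the NM1 KO mice, and 14.4, 28.5 and 15.3 CPM in the NM1 WT mice. NM1 WT 2 lay inside the NM1 KO range, and the log2 fold change was 0.43 (SE 0.24, adjusted p = 0.4 in edgeR's quasi-likelihood test). Of the exon bases of Erap1, 11.5% are shared with Cast on the opposite strand.

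Nlrc5 encodes the transactivator of class I genes and had 23.7, 26.1 and 23.5 CPM in the NM1 KO mice, and 21.3, 17.5 and 29.8 CPM in the NM1 WT mice. The NM1 KO values fell inside the NM1 WT range, with a log2 fold change of 0.10 and a 95% interval of -0.34 to 0.53. Its sign was opposite to that of the 18 class I genes with negative values, but it was not stable. Without NM1 WT 2 the log2 fold change of Nlrc5 was -0.0589.

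**Figure D3:**
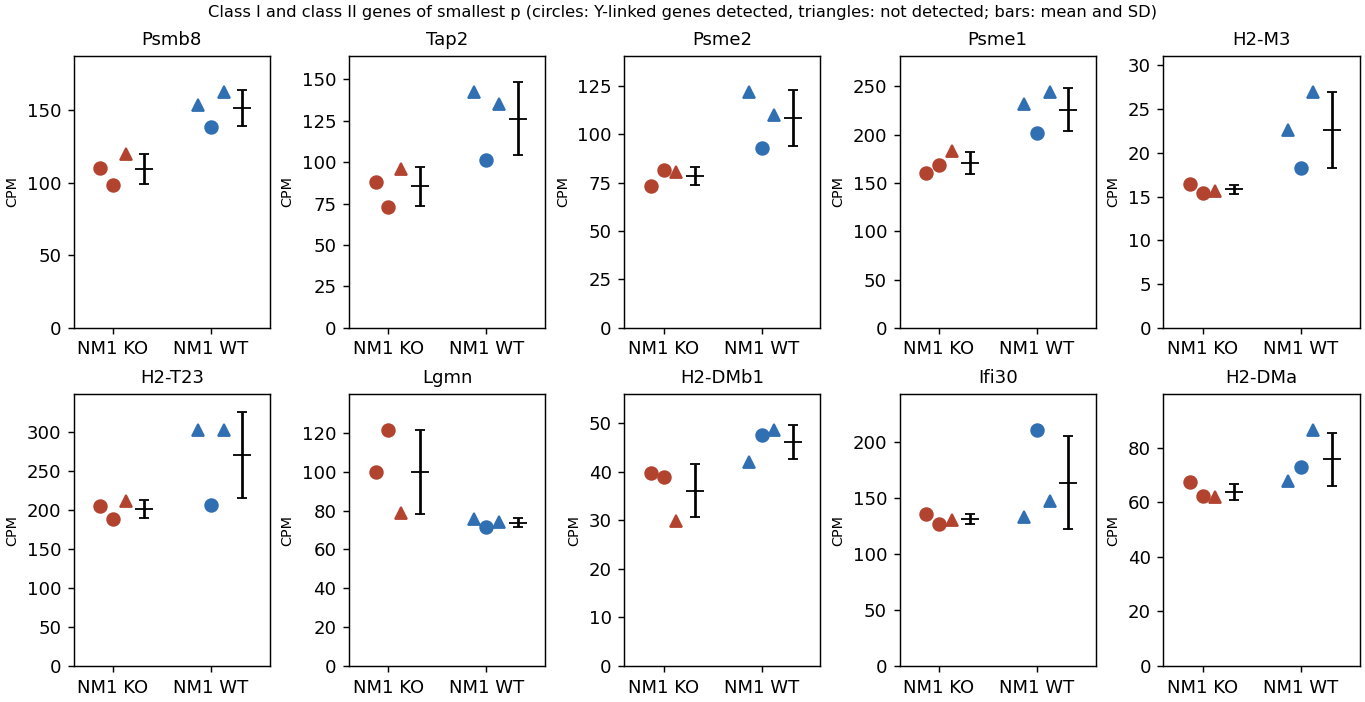
CPM in each mouse for the 6 class I and 4 class II genes of smallest p, NM1 KO (red) left of NM1 WT (blue), with circles for libraries with Y-linked expression, triangles for those without, and bars for mean and SD (n = 3). In the upper row and in H2-T23 the NM1 WT circle is the lowest NM1 WT value, as for H2-T23 at 206 CPM, and Lgmn shows all 3 NM1 KO mice above 78 CPM and all NM1 WT mice below 76 CPM.

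Promoters of 4 members are shown. Those of the proteasome genes Psmb8 and Psme1 stand beside a class I gene and a class II gene whose values overlapped between genotypes. Each runs from 250 bases before to 50 after the start that RefSeq lists first on GRCm38.p6, 5′ to 3′ on the gene's strand. RefSeq promoters were matched for 30 of the 35 members. Capitals mark matches on either strand to a GAAA pair (GAAA, any 2 bases, GAAA, bound by interferon regulatory factors), TTCNNNGAA (a palindrome bound by STAT factors) and CCAAT (bound by NF-Y).
Psmb8, chr17:34197945-34198244, plus strand: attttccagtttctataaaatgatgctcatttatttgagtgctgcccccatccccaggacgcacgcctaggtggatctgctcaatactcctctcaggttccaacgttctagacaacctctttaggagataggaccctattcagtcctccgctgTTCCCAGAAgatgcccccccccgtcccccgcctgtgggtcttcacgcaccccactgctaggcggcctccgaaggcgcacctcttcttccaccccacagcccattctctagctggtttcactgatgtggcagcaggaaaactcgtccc
Psme1, chr14:55578244-55578543, plus strand: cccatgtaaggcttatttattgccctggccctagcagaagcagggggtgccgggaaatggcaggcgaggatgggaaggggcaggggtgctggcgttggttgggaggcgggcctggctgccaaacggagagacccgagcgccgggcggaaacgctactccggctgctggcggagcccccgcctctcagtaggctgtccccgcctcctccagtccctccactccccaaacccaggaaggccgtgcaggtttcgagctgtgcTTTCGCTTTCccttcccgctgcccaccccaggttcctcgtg
B2m, chr2:122147437-122147736, plus strand: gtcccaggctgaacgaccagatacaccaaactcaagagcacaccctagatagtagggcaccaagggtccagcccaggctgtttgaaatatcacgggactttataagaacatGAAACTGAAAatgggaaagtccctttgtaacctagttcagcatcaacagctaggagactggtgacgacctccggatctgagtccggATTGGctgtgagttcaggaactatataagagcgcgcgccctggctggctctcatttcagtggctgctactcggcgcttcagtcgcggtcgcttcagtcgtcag
H2-Aa, chr17:34287774-34288073, minus strand: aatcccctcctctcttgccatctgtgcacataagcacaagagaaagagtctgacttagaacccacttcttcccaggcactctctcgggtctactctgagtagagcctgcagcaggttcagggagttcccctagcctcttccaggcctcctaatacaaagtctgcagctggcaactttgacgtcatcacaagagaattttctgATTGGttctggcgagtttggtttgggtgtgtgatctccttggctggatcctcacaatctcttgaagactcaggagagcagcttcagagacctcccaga

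In these windows Psmb8 held 1 match to TTCNNNGAA, Psme1 held 1 GAAA pair, B2m held a GAAA pair and CCAAT, and H2-Aa held CCAAT. Psmb8 and Psme1 do not stand for their group: the promoters of Psmb9, Psmb10 and Psme2 held neither TTCNNNGAA nor a GAAA pair. The GAAA pair occurred in 5 of 20 class I and 1 of 10 class II promoters, against 3.49% of the first listed promoters of 27025 genes. The 5 class I promoters were those of H2-T22, H2-T23, B2m, Psme1 and Erap1, whose log2 fold changes ranged from -0.43 to 0.43. CCAAT occurred in 15 of 20 and 7 of 10, against 37.9% of all, and TTCNNNGAA in 2 of 20 and 1 of 10, against 8.47% of all. CCAAT and the GAAA pair do not overlap in the windows printed here, and a match describes letters in a window, not a bound site.

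No class II chain passed the test, and the intervals of all 3 spanned 0. H2-Aa and H2-Ab1 encode the alpha and beta chains of I-A, the class II molecule of this strain. H2-Aa (chromosome 17, 34282744 to 34287823) had 334, 340 and 259 CPM in the NM1 KO mice, and 296, 301 and 415 CPM in the NM1 WT mice, and H2-Ab1 (chromosome 17, 34257689 to 34269419) showed 376, 376 and 302 CPM against 333, 371 and 452 CPM in the same order. NM1 KO 3 was the lowest library for H2-Aa and H2-Ab1 and NM1 WT 3 the highest, and the log2 fold changes were -0.12 (95% interval -0.47 to 0.24) and -0.13 (-0.46 to 0.19). The log2 ratio of H2-Aa to H2-Ab1 within a library averaged -0.18 ± 0.04 in NM1 KO mice and -0.20 ± 0.09 in NM1 WT mice (SD, n = 3 each). H2-Eb1, the beta chain of I-E, had a log2 fold change of -0.01.

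Cd74 encodes the invariant chain and, like the I-A chains, was lowest in NM1 KO 3 and highest in NM1 WT 3. It had 956, 869 and 751 CPM in the NM1 KO mice, and 850, 927 and 1024 CPM in the NM1 WT mice. The ranges overlapped, with a log2 fold change of -0.12 and a 95% interval of -0.42 to 0.18. Ciita, the transactivator of class II genes, had 13.4, 9.99 and 8.06 CPM in the NM1 KO mice, and 7.06, 14.3 and 12.8 CPM in the NM1 WT mice. The groups overlapped, with a log2 fold change of -0.12 and an interval of -0.77 to 0.53, the widest of the 35 members.

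Of the 5 genes of peptide exchange, all had negative log2 fold changes, with a median of -0.24. H2-DMa and H2-DMb1 encode an H2-DM alpha and beta chain, and neither overlapped between genotypes. H2-DMb1 had 39.7, 38.9 and 29.8 CPM in the NM1 KO mice, and 42.1, 47.6 and 48.7 CPM in the NM1 WT mice; its log2 fold change was -0.35 (SE 0.15, adjusted p = 0.277 in edgeR's quasi-likelihood test). H2-DMa had 67.3, 62.5 and 61.9 CPM in the NM1 KO mice, and 67.7, 72.8 and 86.7 CPM in the NM1 WT mice, and NM1 KO 1 and NM1 WT 1 were nearly level. H2-DMb2, the second beta chain gene, ranged from 32.3 to 61.8 CPM in NM1 KO and from 37.4 to 61.0 CPM in NM1 WT. It shares 21.2% of its 50-base stretches with H2-DMb1, so reads of the pair may not be separated. H2-Oa and H2-Ob encode H2-O, which restrains H2-DM in B cells, and had log2 fold changes of -0.50 (95% interval -1.12 to 0.13) and -0.16 (-0.76 to 0.44).

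The lysosomal genes of the class II group did not share a direction. Lgmn encodes legumain, an asparaginyl endopeptidase that begins the cutting of antigens and of the invariant chain, and had 99.8, 122 and 78.5 CPM in the NM1 KO mice, and 75.7, 71.4 and 74.4 CPM in the NM1 WT mice. The NM1 KO mice were all above the NM1 WT mice, and the log2 fold change was 0.44 (SE 0.16, adjusted p = 0.189 in edgeR's quasi-likelihood test). Ifi30 encodes GILT, the thiol reductase that unfolds antigens, and had 136, 127 and 131 CPM in the NM1 KO mice, and 133, 211 and 148 CPM in the NM1 WT mice. NM1 WT 2 stood far above the other 5 libraries, and the log2 fold change was -0.32 (adjusted p = 0.352). Ctss, cathepsin S, which removes the invariant chain in most antigen-presenting cells, had 229 to 292 CPM in NM1 KO and 248 to 364 CPM in NM1 WT, again with NM1 WT 2 highest.

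Levels were compared between genes per length. In CPM per kilobase of annotated exon, B2m was the most abundant member with 1128 ± 135 in NM1 KO and 1146 ± 98.9 in NM1 WT (SD, n = 3 each). H2-D1 followed with 644 ± 28.5 in NM1 KO and 777 ± 93.7 in NM1 WT, and Cd74 with 512 ± 61.4 and 556 ± 51.7 in the same order. H2-K1 stood at 351 ± 19.5 in NM1 KO and 363 ± 72.4 in NM1 WT. The immunoproteasome subunits lay lower, from 22.8 for Psmb9 to 49.2 for Psmb10 in NM1 KO and from 31.7 to 60.0 in NM1 WT. Ciita was the lowest member in both genotypes, at 1.10 ± 0.28 in NM1 KO and 1.19 ± 0.40 CPM per kilobase in NM1 WT. Nlrc5, at 2.88 ± 0.17 in NM1 KO and 2.69 ± 0.74 in NM1 WT, and Erap1, at 3.605 ± 0.323 and 2.67 ± 1.08 in the same order, came next. Neighbours in the middle of this order, such as H2-Ab1, Ifi30 and H2-Eb1 with 131 to 137 CPM per kilobase in NM1 KO, did not differ beyond their SD, and the exon length counts all annotated isoforms.

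**Figure D4:**
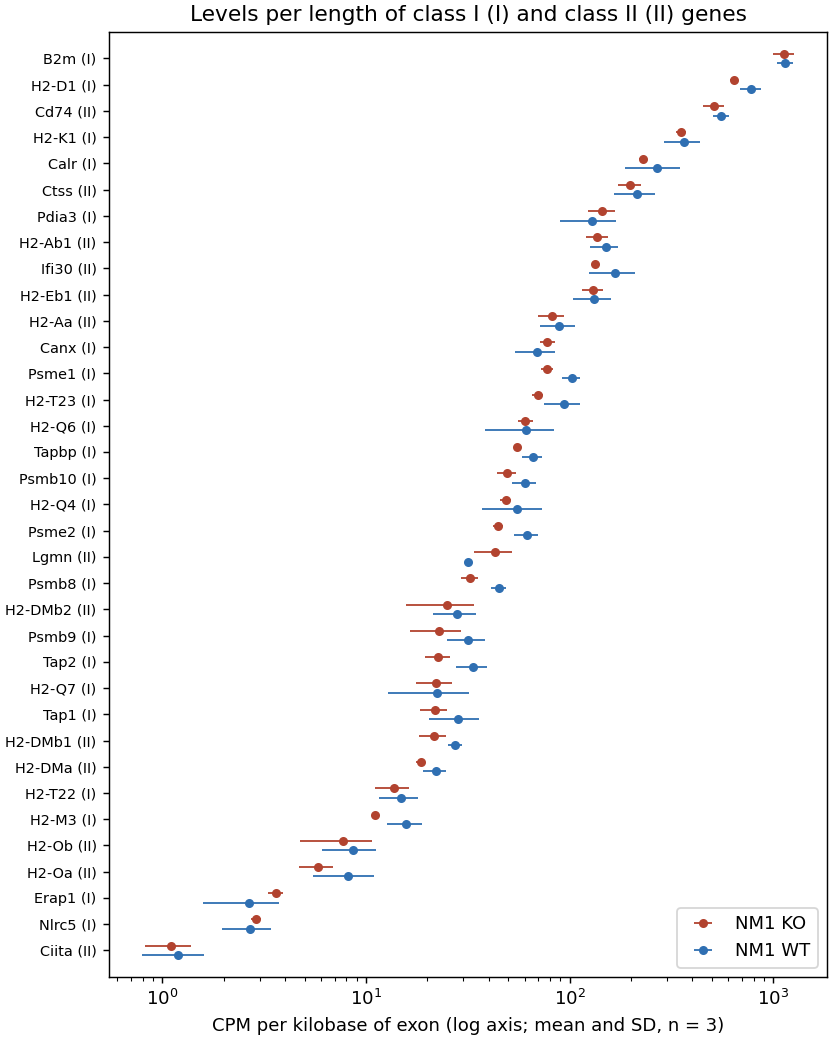
Mean level of each gene in CPM per kilobase of exon (log axis) with SD (bars, n = 3), NM1 KO (red) above NM1 WT (blue) for each gene, ordered by the NM1 KO mean. The order runs from B2m at 1128 to Ciita at 1.10 CPM per kilobase in NM1 KO, and the bars of the genotypes overlap for H2-K1, B2m, Cd74 and the I-A chains.

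Other genes of antigen presentation were read in the same fit: 58 listed genes, of which 56 were tested. None of the 56 passed in edgeR's quasi-likelihood test, with 26 positive and 30 negative log2 fold changes and a median of -0.04. At an unadjusted p under 0.05, 2 were higher and 6 lower (10.7%), where 8.44% of all tested genes were higher and 8.32% lower. DESeq2 called 4 of the 56, where it called 5.27% of all tested genes. The 4 of smallest p were Spi1, Ctsh, Jak2 and March8. Spi1 encodes PU.1, a transcription factor of myeloid and B cells, and had 304, 219 and 299 CPM in the NM1 KO mice, and 417, 455 and 352 CPM in the NM1 WT mice (log2 fold change -0.57, adjusted p = 0.113). Ctsh, cathepsin H, had 144, 125 and 126 CPM in the NM1 KO mice, and 171, 192 and 174 CPM in the NM1 WT mice (log2 fold change -0.44, adjusted p = 0.116). The groups of Spi1 and Ctsh did not overlap. Jak2, a kinase of the interferon-gamma receptor, had 79.7, 96.8 and 85.0 CPM in the NM1 KO mice, and 67.1, 65.4 and 59.5 CPM in the NM1 WT mice, and March8, a ubiquitin ligase that removes class II from the surface, had 209, 257 and 254 CPM against 168, 200 and 145 CPM in the same order. Both were higher in all 3 NM1 KO mice, with log2 fold changes of 0.44 and 0.49 and adjusted p of 0.122 and 0.138 in edgeR's quasi-likelihood test.

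Interferon-stimulated genes are set beside the class I group, since interferons raise both. Of 25 such genes, 2 passed and both were higher, Igtp (log2 fold change 1.45) and Irgm2 (1.69), neighbours whose annotated transcripts overlap. Among all tested genes 0.591% passed as higher. Igtp and Irgm2 lie on chromosome 11 with the targeted Myo1c, Igtp starting at 58199556 and Myo1c at 75650504. Irgm1, on the same chromosome, stood at -0.16. Whether sharing that chromosome plays a part was not tested. The list as a whole leaned negative, with 16 of 25 negative and a median of -0.25. Before adjustment, 10 had p under 0.05 as lower and 3 as higher, where 8.32% of all tested genes were lower and 8.44% higher. The 3 were Igtp, Irgm2 and Cxcl9 (1.50). Among the 10 were Ifit1 (-1.27), Oas2 (-1.12), Oas1a (-1.08), Oas3 (-0.88) and Irf7 (-0.80), and 0 of the 10 passed the threshold. The summed level of the list ran from 1313 to 1631 CPM in NM1 KO and 1291 to 2042 CPM in NM1 WT, and no gene of the list was at 0 in any library. The list score, the mean log2(CPM + 0.5) of its genes, was 4.38, 4.73 and 4.82 in the NM1 KO mice, and 5.0, 4.35 and 4.96 in the NM1 WT mice. The class I score was 7.15, 7.18 and 7.31 in the NM1 KO mice, and 7.39, 7.21 and 7.54 in the NM1 WT mice, and in both scores NM1 WT 2 lay inside the NM1 KO range or below it. The part of these genes in the class I values was not tested.

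Markers of the cells that carry class II are set beside the class II group. The class II score was 6.70, 6.55 and 6.28 in the NM1 KO mice, and 6.48, 6.63 and 6.85 in the NM1 WT mice. The score of 10 B cell markers was 6.35, 5.76 and 5.79 in the NM1 KO mice, and 6.02, 5.79 and 6.14 in the NM1 WT mice, with a summed level of 780 to 1129 CPM and 786 to 1023 CPM in the same order. None of the 10 passed, and the median log2 fold change was 0.0072. The log2 ratio of Cd74 to the B cell receptor gene Cd79a averaged 1.62 ± 0.23 in NM1 KO mice and 1.73 ± 0.23 in NM1 WT (SD, n = 3 each). Of 8 conventional and 7 plasmacytoid dendritic cell markers, 0 passed, with medians of -0.16 and -0.20. Summed levels of the conventional markers were 75.0 to 114 CPM in NM1 KO and 96.6 to 107 CPM in NM1 WT, with NM1 KO 3 lowest in that list as in the class II score, and those of the plasmacytoid markers 469 to 530 and 445 to 575 CPM. Of 13 monocyte and macrophage markers, 2 passed as higher, Mrc1 (log2 fold change 1.46, adjusted p = 0.0396) and Vcam1 (1.39, adjusted p = 0.0396), in edgeR's quasi-likelihood test. Among all tested genes 0.591% passed as higher. The list split in direction around a median of 0.04: at an unadjusted p under 0.05, 3 were higher (Mrc1, Vcam1 and C1qc) and 5 lower, Ly6c2 at -0.53, Fcgr1 at -0.62, Cx3cr1 at -0.84, Ccr2 at -0.55 and Csf1r at -0.39. At that level 8.44% of all tested genes were higher and 8.32% lower. Its summed level was 1475 to 1837 CPM in NM1 KO libraries and 1495 to 1689 CPM in NM1 WT. Their part in the class II values was not tested.

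**Figure D5:**
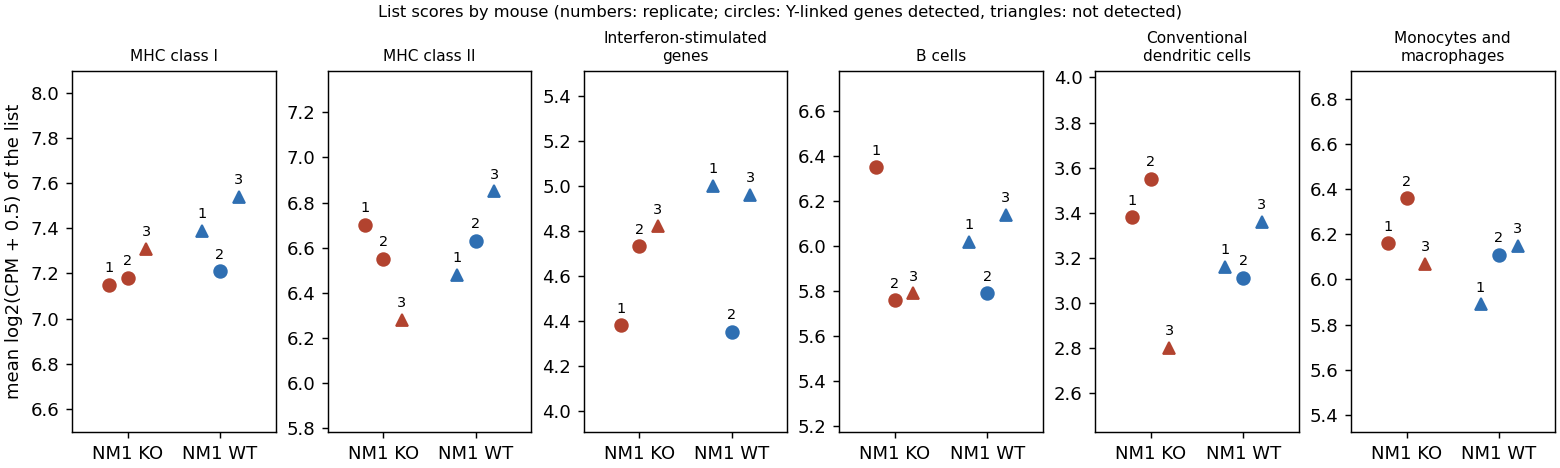
Score of 6 gene lists (mean log2(CPM + 0.5) of the genes) in each mouse, NM1 KO (red) left of NM1 WT (blue), with replicate numbers, circles for libraries with Y-linked expression and triangles for those without; every panel spans the same range of log2 units. The class I score of NM1 WT 2, 7.21, lies among the NM1 KO values of 7.15 to 7.31, and the class II score is lowest in NM1 KO 3 at 6.28.

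Other marker lists show what else the marrow held. Neutrophil markers summed to 37330 to 48890 CPM in NM1 KO and 48530 to 66820 CPM in NM1 WT (0 of 11 passed, all negative, median -0.47), and erythroid markers to 70200 to 73870 and 56880 to 81150 CPM (0 of 8 passed). Platelet markers summed to 2044 to 4374 CPM in NM1 KO and 1016 to 1322 CPM in NM1 WT. All 9 were positive (median log2 fold change 1.25) and 8 passed, among them Tubb1 at 1.38 and Itgb3 at 1.16. Of all tested genes 0.591% passed as higher, a share that applies to each list here. Stromal markers summed to 1203 to 1996 CPM in NM1 KO and 545 to 656 CPM in NM1 WT. All 7 were positive (median 1.25) and 4 passed, among them Col1a2 at 2.08 and Cxcl12 at 1.40. Endothelial markers summed to 148 to 201 and 98.3 to 142 CPM in the same order. All 7 were positive (median 0.96) and 1 passed, Esam at 1.17. Of 10 T and NK cell markers (126 to 144 and 125 to 136 CPM), 5 were positive and 5 negative, and 1 passed, Cd4 at 1.18. Of 6 plasma cell markers (513 to 928 and 578 to 652 CPM) 0 passed. No marker was at 0 in any library. All of these calls are from edgeR's quasi-likelihood test, and the part of these cells in the class I and class II values was not tested.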

How the data were processed

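Whole bone marrow RNA of 3 NM1 KO and 3 NM1 WT mice was sequenced, and the authors deposited raw read counts per Ensembl gene. The submitters' processing notes name HISAT2 2.0.4 and HTSeq, beside SAMtools 0.1.19, FastQC and Trimmomatic 0.36, with builds GRCm38 and mm10, and strand not given in the sources used here. Of counts from 1 to 20 in a library, 98.7% to 98.9% were even, as when both mates of a pair are counted, so halved counts were an alternative. Symbols, positions and exon lengths came from GENCODE M21, which matched 46091 of 46603 genes.

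Genes were kept by filterByExpr and scaled with TMM factors. Genotype was tested with edgeR 4.0.16 (quasi-likelihood test, R 4.3.3) over 15069 genes, with Benjamini-Hochberg adjustment over all of them and a threshold of 0.05. SE is the log2 fold change over the square root of F, and intervals are 95% intervals from the test's degrees of freedom. Scores add 0.5 to the CPM. DESeq2 1.42.0, limma 3.58.1 and other scalings, filters and left-out libraries were alternatives. The test was checked on simulated counts. The members and lists were chosen with earlier results of these data known; full values are given for the 6 class I and 4 class II genes of smallest p, the main chains and transactivators, and the 4 other presentation genes of smallest p. The subunit ratios, the within-state values and the promoters printed were chosen after values were seen. The labels mention no molecular identifiers.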

Additional observations from a re-analysis of the deposited data

How the results depend on the processing

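Over 18 alternatives, 21 of the 35 members kept the sign of their log2 fold change (14 class I, 7 class II), and 7 members passed the threshold in at least 1 of them. The count of class I members called was 3 with no low-count filter (Psmb8, Psmb9 and Tap2), 4 with DESeq2 (Psmb8, Tap2, Psme1 and Psme2), and 0 to 4 when 1 library was left out, with 4 without NM1 WT 2. Of all tested genes, 4.67% of 24358 passed with no filter, 5.27% with DESeq2 and 3.59% with the likelihood ratio test. The share was 0.167% to 2.18% when 1 library was left out, with 2.18% without NM1 WT 2. The count of class II members called was 0 in all 18. Other antigen presentation genes called numbered 4 with no filter, 4 with DESeq2, 1 with the likelihood ratio test, and 0 to 1 when 1 library was left out. Over all genes the count was 1138 with no filter, 794 with DESeq2, 37 with limma-voom, 541 with the likelihood ratio test, 207 without haemoglobin, immunoglobulin and mitochondrial genes, 60 with Y-linked state in the model, and 26 to 344 when 1 library was left out. Same-numbered mice deviated together by correlations of 0.0636, 0.115 and 0.0609. The other combinations of an NM1 KO and an NM1 WT mouse gave lower values, -0.0784 to 0.0172. The labels do not say that the numbers pair the mice, so the main test took no pairs. Whether same-numbered mice share an effect was not tested. With the replicate block 421 genes (2.79% of all tested), 1 class I member (Tap2) and 1 other antigen presentation gene passed. The median of the class I group ranged from -0.32 to -0.19 and that of the class II group from -0.29 to -0.0083, when 1 library was left out. The causes were not tested.

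The sign turned in at least 1 alternative for the other 14 members, none of them past the threshold. With Y-linked state in the model H2-K1 stood at 0.0547, H2-Q4 at 0.0281, H2-Q6 at 0.249, H2-Q7 at 0.299, H2-T22 at 0.0474 and B2m at 0.0426. With total-count scaling H2-Q6 stood at 0.0214, H2-Q7 at 0.0145, B2m at 0.016 and H2-Eb1 at 0.0236. With no filter H2-Q6 was 0.00308 and H2-Eb1 0.0065, with limma-voom H2-Q6 was 0.0622, H2-Q7 0.0644 and H2-Eb1 0.00148, and with the replicate block H2-Q6 was 0.0543, H2-Q7 0.0546 and H2-Eb1 0.00255. With 1 library left out, log2 fold changes ranged from -0.178 to 0.0978 for H2-K1, -0.408 to 0.0456 for H2-Q4, -0.272 to 0.244 for H2-Q6, -0.293 to 0.325 for H2-Q7, -0.283 to 0.0335 for H2-T22, -0.0881 to 0.0706 for B2m, -0.0589 to 0.326 for Nlrc5, -0.353 to 0.0603 for Calr, -0.203 to 0.0512 for H2-Aa, -0.132 to 0.161 for H2-Eb1, -0.52 to 0.00653 for H2-DMb2, -0.459 to 0.101 for H2-Ob, -0.369 to 0.0846 for Ciita and -0.21 to 0.0936 for Ctss.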

Other observations

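Several H2 genes and Mr1, outside the 35, were also counted. H2-Q10, a secreted class I heavy chain known mainly from liver, had 45.5, 27.3 and 43.0 CPM in the NM1 KO mice, and 85.2, 42.8 and 62.9 CPM in the NM1 WT mice (log2 fold change -0.72, adjusted p = 0.175 in edgeR's quasi-likelihood test), and NM1 WT 2 lay inside the NM1 KO range. Of the 50-base stretches of H2-Q7, 14% also occur in H2-Q10, as do 5.18% of those of H2-K1, so reads of these genes may not be separated. H2-Q1 had 0.348 to 0.703 CPM in NM1 KO libraries and 0.580 to 1.90 CPM in NM1 WT. H2-Eb2, a second beta chain gene beside H2-Eb1, had 4.40, 4.97 and 3.94 CPM in the NM1 KO mice, and 2.04, 1.97 and 4.07 CPM in the NM1 WT mice, with NM1 KO 3 below NM1 WT 3 (adjusted p = 0.397). H2-Ea-ps, the I-E alpha chain pseudogene of this strain, and H2-T3 did not pass the filter on low counts: H2-Ea-ps had 0 to 0.188 CPM in NM1 KO libraries and 0 to 0.136 CPM in NM1 WT, and H2-T3 had 0 to 0.0921 CPM in NM1 KO libraries and 0 CPM in NM1 WT. Mr1, which presents vitamin B metabolites to MAIT cells, had 2.44, 3.22 and 2.91 CPM in the NM1 KO mice, and 0.272, 1.22 and 1.97 CPM in the NM1 WT mice, all NM1 KO values above all NM1 WT values, with an adjusted p of 0.309. These genes were chosen after their values were seen.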
